A study of Mus musculus with 6 samples.

Results

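The genes described here are 10 regulators, several of which growth factors and stress switch on early. They are the AP-1 subunits Fos, Fosb, Fosl1, Fosl2, Jun, Junb and Jund, with Myc, Egr1 and Zfp36. They were chosen by name, and 14 of the 45101 probe sets of the array were annotated to exactly 1 of them. The transcripts came from 3T3-L1 cells, a mouse embryonic fibroblast line that can turn into fat cells in culture, on 6 one-colour oligonucleotide arrays. On 3 of the arrays the cultures had received resveratrol, a polyphenol found in grapes, and on the other 3 they were controls. The labels name no dose, duration or differentiation state, and no genetic change; the line is the only genotype. They do not say whether the 3 cultures of a group were grown on separate occasions, so a p-value here measures only the spread between these cultures, which may be technical.

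AP-1 is a pair of basic leucine zipper proteins. Jun proteins pair with each other or with a Fos protein, while Fos proteins need a Jun partner. The pair binds DNA, and its effect depends on which subunits are present: Fos, Fosb, Jun and Junb are made for a short time after a stimulus, whereas Fosl1, Fosl2 and Jund last longer. Myc pairs with Max and drives ribosome production and growth. Egr1 is a zinc finger activator induced through serum response factor, and Zfp36 (tristetraprolin) binds AU-rich stretches of messenger RNAs and speeds their decay. In preadipocytes several of these genes are known for the first hours after the hormones that start fat cell formation are added.

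Resveratrol cultures had less Fosl1 signal, less Jund signal at its brighter probe set, and more Myc and Zfp36 signal than control cultures. The dimmer Jund probe set was not called. The main Fosl1 probe set fell to about 0.394 of the control mean, the largest change among the 14 probe sets. The other 6 genes, Fos and Jun among them, had no probe set that passed the test. The 14 probe sets were all tested, since each was among the 60% with the highest mean level. The test was limma on log2(intensity + 16) over 27022 probe sets, and a probe set was called at an adjusted p under 0.05.

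Of the 14 probe sets, 2 were called higher and 3 lower with resveratrol. Over all 27022 tested, 8.17% were called, 3.95% higher and 4.22% lower. The 3 resveratrol values and the 3 control values did not overlap for 9 of the 14, against 26.4% of all probe sets tested. The 5 calls came from 4 genes. With each gene represented by its brightest probe set, 2 of the 10 genes were called higher and 2 lower, where 5.32% and 5.21% of 12630 genes were. The median log2 change was 0.09 over the 10 genes and 0.02 over all genes tested.

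**Figure D1:**
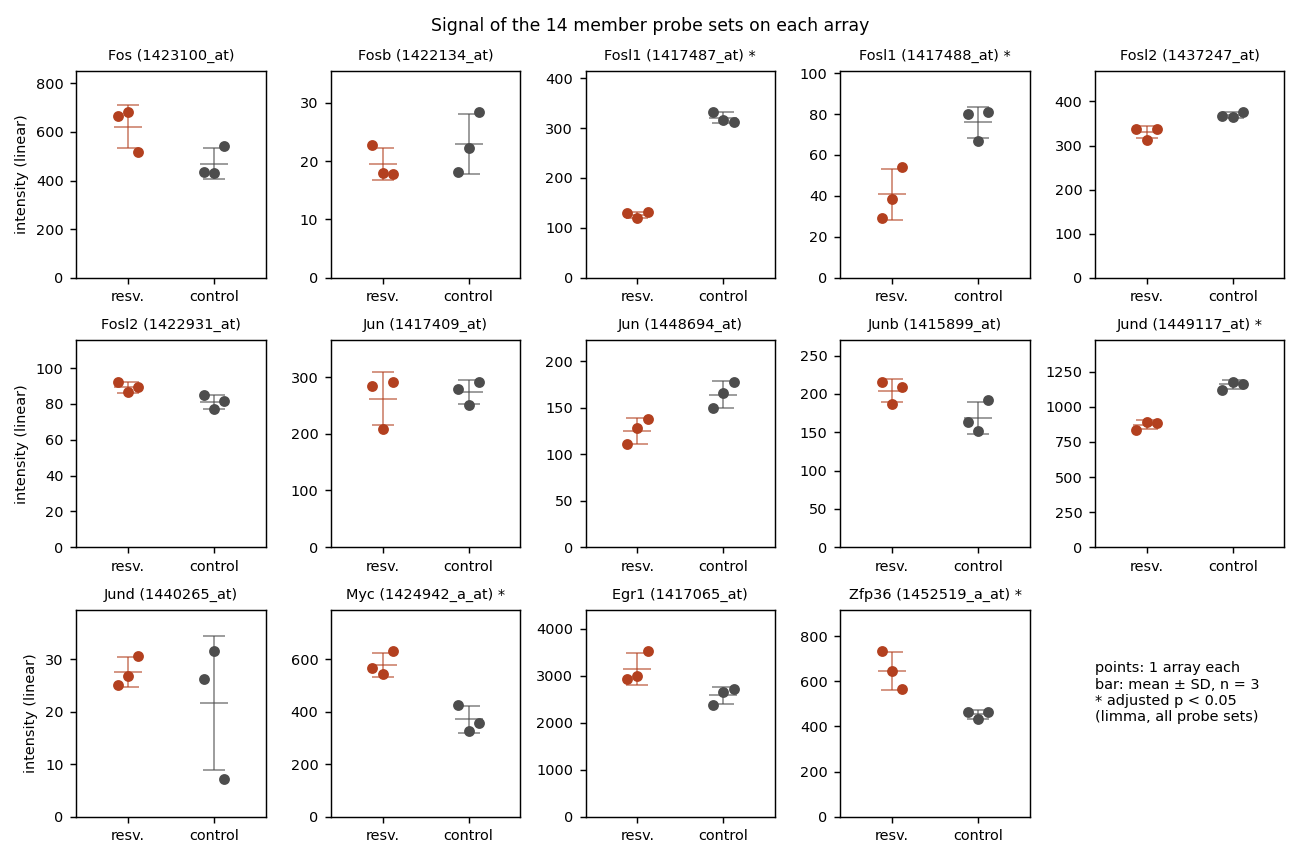
Intensity on a linear scale (vertical axis) of each member probe set on the 3 resveratrol arrays, left, and the 3 control arrays, right, with 1 point per array and bars for the mean and SD. The groups stand clear of each other for Fosl1, Jund 1449117_at, Myc and Zfp36, which were called. They also do for Egr1, both Fosl2 probe sets and Jun 1448694_at, which were not called. Those of Fos, Fosb, Junb, Jun 1417409_at and Jund 1440265_at overlap.

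**Figure D2:**
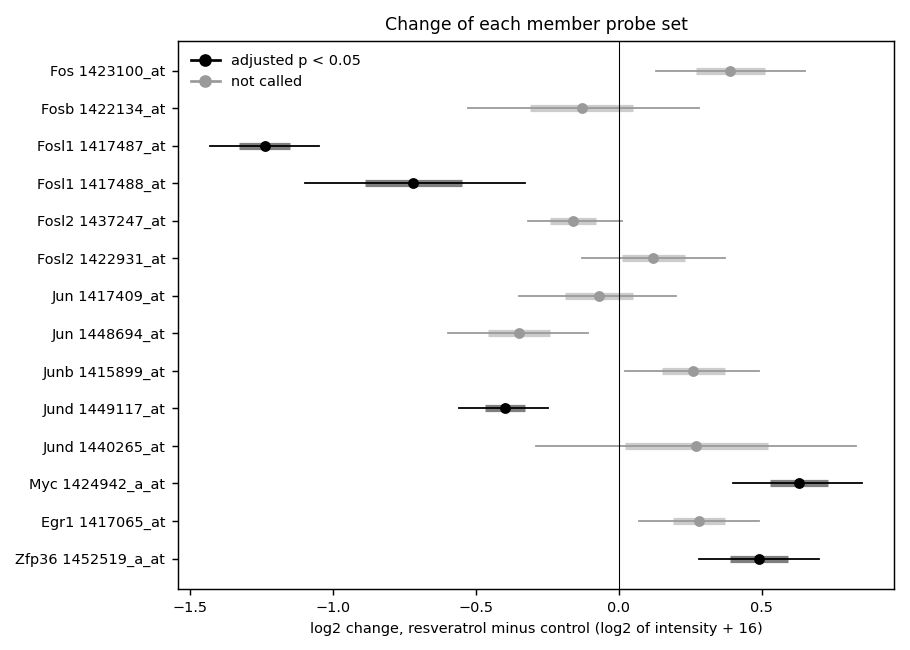
Log2 change of each member probe set, resveratrol minus control, on the horizontal axis. Points are the fitted change, thick bars its standard error and thin lines its 95% interval. Black marks the 5 probe sets called, with Fosl1 furthest to the left at -1.24 and Myc furthest to the right at 0.63.

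The probe sets of the biotin-labelled bacterial spikes, which check the array and not the cells, were brighter on resveratrol replicate 1 and control replicates 1 and 2, at a geometric mean intensity of 1433 to 1690 over 9 probe sets. They were dimmer on resveratrol replicates 2 and 3 and control replicate 3, at 858.3 to 1031. Changes within each of these sets of arrays, which have 1 array on one side, are given as values without a test. Control replicate 1 was written with more decimals than the other 5 arrays, in 99.2% of its values; rounded to 1 decimal, it had 317 to 365 values identical to those of another array, where the other 5 had 287 to 367. Fat cell genes were bright in both groups. Fabp4, the fatty acid carrier of adipocytes, averaged 9930 with resveratrol and 11700 in control. Adipoq, the adiponectin gene, averaged 6840 and 8620 in the same order, and Dlk1, a preadipocyte gene, 4060 and 3850. Of the 8 adipocyte markers tested, 3 were called lower and 0 higher (0 higher and 4 lower at an unadjusted p under 0.05). All 8 log2 changes were below 0. The 3 called were named after their values were seen. Slc2a4 averaged 380 with resveratrol and 880 in control (log2 change -1.19), and Cidec and Retn changed by -0.57 and -0.54. The summed signal of 9 adipocyte markers was 35600 to 43400 with resveratrol and 37700 to 55700 in control. Of 8 preadipocyte and fibroblast markers, 7 were tested, and 2 were called higher and 0 lower (2 higher and 1 lower at an unadjusted p under 0.05). The 2 called, Zfp521 and Thy1, changed by 0.56 and 0.4 and were also named after their values were seen. Of the 7 log2 changes, 4 were above 0 and 3 below. The sums of the 8 were 23900 to 29400 with resveratrol and 25100 to 30900 in control. Csf1r, a macrophage receptor, averaged 104 with resveratrol and 90.9 in control, and Ptprc and Itgam, which define blood cells and macrophages, were too dim to be tested. Of the 6 macrophage markers tested, 1 was called higher and 0 lower (2 higher and 0 lower at an unadjusted p under 0.05). The one called was Cd14, an endotoxin co-receptor named after its value was seen, at 126 with resveratrol and 86.3 in control (log2 change 0.47, adjusted p = 0.0365 by limma). The summed signal of 8 macrophage markers was 410 to 479 with resveratrol and 307 to 375 in control. Of 5 endothelial markers, 3, among them Pecam1, were too dim to be tested, and the other 2 were not called. The part of a change in cell make-up in the results below was not tested, and fewer cells of a type cannot be told apart from less RNA per cell.

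RefSeq promoter sequence (build GRCm38.p6) was at hand for 7 of the 10 genes. The 110 bases before the RefSeq start are shown for Zfp36, Jund, Fos and Jun. Zfp36 and Jund each had a probe set called, and Fos and Jun are the subunits that give AP-1 its classic form. Capitals mark letters of a searched motif. The motifs were the AP-1 site TGANTCA, its Jun-type variant TGACATCA, the cyclic AMP element TGACGTCA and its half-site TGACG, the E-box CACGTG, the EGR site GCGNGGGCG and the CArG box of serum response factor, on both strands. The half-site lies within the full cyclic AMP element. The GC box GGGCGG was also searched and is not capitalised, as it can overlap the EGR site; in Zfp36 it overlaps the CArG box by its last base. Zfp36 lies at chr7:28379229-28379338 on the minus strand, Jund at chr8:70697629-70697738 on the plus strand, Fos at chr12:85473780-85473889 on the plus strand and Jun at chr4:95052223-95052332 on the minus strand.
Zfp36: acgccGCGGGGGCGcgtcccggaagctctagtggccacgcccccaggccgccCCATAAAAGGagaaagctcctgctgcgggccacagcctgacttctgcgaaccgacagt
Jund: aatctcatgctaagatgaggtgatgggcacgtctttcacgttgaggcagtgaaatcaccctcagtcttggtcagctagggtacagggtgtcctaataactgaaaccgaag
Fos: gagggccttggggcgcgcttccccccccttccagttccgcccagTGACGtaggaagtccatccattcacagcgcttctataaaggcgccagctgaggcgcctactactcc
Jun: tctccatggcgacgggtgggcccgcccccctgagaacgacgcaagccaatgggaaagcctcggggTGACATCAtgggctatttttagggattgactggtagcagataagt

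The EGR site was found in 3 of the 7 promoters within 250 bases of the start, those of Zfp36, Fosb and Fosl2, and in 4.74% of 32536 RefSeq promoters of that length. In Zfp36 it began 105 bases before the start, and a CArG box, held by 1.48% of the promoters, began 58 bases before it. The Jun promoter held the Jun-type AP-1 variant from 45 bases before the start, found in 2.84% of promoters. The cyclic AMP half-site was in 3 of 7, Fos, Fosb and Junb, and in 17.9% of all, and the GC box was in 5 of 7 and in 33% of all. The AP-1 site, the full cyclic AMP element and the E-box were in none of the 7 windows, and in 6.73%, 1.56% and 6.04% of all. The Jund window held none of the letters searched. A match describes the letters and shows no binding, and no match says only that they are not in this window.

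Fosl1, which encodes the late Fos protein FRA-1 that lacks the strong activation domain of Fos, changed the most. Its probe set 1417487_at had 129, 120 and 131 on the resveratrol arrays, against 332, 316 and 313 on the control arrays. The groups were far apart and each was tight, at 126 ± 6.03 with resveratrol and 321 ± 10.1 in control (SD, n = 3). The log2 change was -1.24 ± 0.09 (SE), with an adjusted p = 1.5e-05 by limma, and this probe set ranked 26th by p among those tested. The change was -1.23 among arrays with brighter spikes and -1.22 among those with dimmer ones.

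The dimmer Fosl1 probe set, 1417488_at, fell too. It had 29.4, 38.3 and 54.3 with resveratrol and 79.8, 67 and 81 in control, without overlap. Its log2 change was -0.72 ± 0.17 (SE) with an adjusted p = 0.0286 by limma, and -0.97 and -0.65 among arrays with brighter and with dimmer spikes. That call was lost with no filter on low signals (adjusted p = 0.0882) and when any 1 array other than resveratrol replicate 3 was left out, in those fits with adjusted p from 0.0535 to 0.099.

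Fosl2, the gene of the related protein FRA-2, had 2 probe sets whose differences had opposite signs and were small. The brighter, 1437247_at, had 337, 313 and 338 with resveratrol and 366, 364 and 376 in control. The other, 1422931_at, had 92.5, 86.5 and 89.2 with resveratrol and 84.8, 77 and 81.6 in control. Neither overlapped between groups, the first lower and the second higher with resveratrol, but neither passed, at log2 differences of -0.16 ± 0.08 and 0.12 ± 0.11 (SE) with adjusted p = 0.262 and 0.621 by limma. Their 95% intervals ran from -0.32 to 0.01 and from -0.13 to 0.37.

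Fos, the prototype immediate-early gene, had 665, 682 and 518 with resveratrol and 434, 430 and 543 in control. The means were 622 ± 90 and 469 ± 64 in the same order (SD, n = 3), and the groups overlapped, because resveratrol replicate 3 lay below control replicate 3. The log2 difference of 0.39 ± 0.12 (SE) did not pass, with an adjusted p = 0.0694 by limma. It was 0.60 among arrays with brighter spikes and 0.13 among those with dimmer ones. Taking the spike split as a block gave 0.37 (adjusted p = 0.129). It passed without resveratrol replicate 3, at 0.52 (adjusted p = 0.0236), without control replicate 3, at 0.50 (adjusted p = 0.0308), with array weights, and with the brightest 40% of probe sets alone.

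Fosb, whose protein is a close relative of Fos with a strong activation domain, was near the dim end of the probe sets tested. It had 22.7, 17.9 and 17.8 with resveratrol and 18.2, 22.2 and 28.4 in control, where the groups overlapped. The lowest mean level tested corresponded to an intensity of 20.3. The log2 difference was -0.13 ± 0.18 (SE, adjusted p = 0.76 by limma), with a 95% interval from -0.53 to 0.28.

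Among the Jun genes, Jund fell at its bright probe set. Jund encodes the Jun protein that is present in resting cells and slows the growth of fibroblasts. Probe set 1449117_at had 835, 893 and 887 with resveratrol and 1120, 1180 and 1160 in control. Every resveratrol array was below every control array, with means of 872 ± 32.1 and 1160 ± 29.7 (SD, n = 3). The log2 change was -0.40 ± 0.07 (SE) with an adjusted p = 0.00537 by limma, and -0.46 and -0.38 among arrays with brighter and with dimmer spikes. The call was lost without an intensity trend in the variance (adjusted p = 0.0544).

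The other Jund probe set, 1440265_at, was dim, at 25.1, 26.9 and 30.7 with resveratrol and 26.3, 31.6 and 7.2 in control. Control replicate 3 alone was low, and without it the log2 difference of 0.27 ± 0.25 (SE, adjusted p = 0.608 by limma) became -0.05 (adjusted p = 0.933). With the mean of the 2 probe sets in place of the brighter one, Jund had -0.06 (adjusted p = 0.801) and its call was lost.

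Jun itself had 2 probe sets, and neither passed. The brighter, 1417409_at, had 284, 208 and 292 with resveratrol and 279, 250 and 292 in control, which overlap. Its log2 difference was -0.07 ± 0.12 (SE, adjusted p = 0.796 by limma, 95% interval -0.35 to 0.20), and 0.07 without resveratrol replicate 2, the lowest array. The other, 1448694_at, had 111, 128 and 138 with resveratrol and 150, 166 and 178 in control, lower on every resveratrol array. Its log2 difference was -0.35 ± 0.11 (SE, adjusted p = 0.0822 by limma, 95% interval -0.60 to -0.11). With the spike split as a block it was -0.42 and passed, with an adjusted p = 0.0478.

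Junb, whose protein holds back Jun in many settings, had 216, 187 and 209 with resveratrol and 163, 151 and 192 in control. Resveratrol replicate 2 lay below control replicate 3, so the groups overlapped. The log2 difference was 0.26 ± 0.11 (SE, adjusted p = 0.186 by limma), at 0.42 among arrays with brighter spikes and 0.04 among those with dimmer ones.

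Whether the 2 probe sets of a gene moved alike was compared for 4 genes, as the log2 distance between them on each array. Resveratrol minus control, that distance differed by -0.52 for Fosl1, -0.27 for Fosl2, 0.28 for Jun and -0.67 for Jund. These are values without a test, since an exact permutation of 3 arrays against 3 cannot give a 2-sided p below 0.1.

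Myc, the growth regulator, rose. It had 566, 543 and 632 with resveratrol and 428, 328 and 359 in control, so that the lowest resveratrol array was above the highest control array. The means were 580 ± 46.2 and 372 ± 51.3 (SD, n = 3), a ratio of 1.56. The log2 change was 0.63 ± 0.10 (SE) with an adjusted p = 0.0038 by limma, and 0.57 and 0.68 among arrays with brighter and with dimmer spikes. Its call held under each of the 17 alternatives run on this probe set, with a highest adjusted p of 0.0406.

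Egr1 was bright in both groups. It had 2920, 2990 and 3520 with resveratrol and 2380, 2650 and 2710 in control. All resveratrol arrays were above all control arrays, with resveratrol replicate 3 the highest. The log2 difference of 0.28 ± 0.09 (SE, 95% interval 0.07 to 0.49) did not pass, at an adjusted p = 0.103 by limma, and it passed under none of the 18 alternatives.

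Zfp36, the decay factor, rose as well. It had 734, 645 and 565 with resveratrol and 465, 432 and 464 in control, without overlap but with a wider spread in the treated cultures. The means were 648 ± 84.1 and 454 ± 18.9 (SD, n = 3). The log2 change was 0.49 ± 0.10 (SE) with an adjusted p = 0.00953 by limma. It was 0.69 among arrays with brighter spikes and 0.37 among those with dimmer ones, and 0.53 when the spike split was a block (adjusted p = 0.0119). The call was lost without an intensity trend in the variance (adjusted p = 0.0679).

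Genes around these regulators were counted in 8 lists, each gene by its brightest probe set. The lists serve as description beside the share of all genes, of which 10.5% were called with a median of 0.02. Genes of a list beyond the number tested were too dim or not analysed here.

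Of 35 target genes of Myc that were tested, 16 were called higher and 3 lower, with a median log2 change of 0.25. They act in ribosome production, in polyamine and nucleotide synthesis and in growth metabolism. Nop56, a nucleolar protein that helps to modify ribosomal RNA, had 732, 774 and 832 with resveratrol and 513, 506 and 461 in control. Odc1, whose probe set may cross-hybridise and which encodes the enzyme that starts polyamine synthesis, had 1370, 1460 and 1320 with resveratrol and 907, 853 and 956 in control. Neither overlapped, and the log2 changes were 0.64 ± 0.08 and 0.60 ± 0.08 (SE), with adjusted p = 0.000675 and 0.000806 by limma. The 3 that fell were Tfrc, the transferrin receptor, at -0.63, Hk2, a hexokinase, at -0.55 and Ldha, lactate dehydrogenase, at -0.87. Hk2 and Ldha are glycolytic, and Tfrc serves iron uptake. Why these 3 fell was not tested. Ldha was named after its value was seen. The count of 16 was 14 without control replicate 1, but 9, 7 and 8 without resveratrol replicates 1, 2 and 3 and 8 and 10 without control replicates 2 and 3. Without an intensity trend it was 5.

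Of 18 partners and regulators of Myc, 2 were called higher and 3 lower, with a median of -0.02. Mxi1, which competes with Myc for Max and represses, had 351, 352 and 366 with resveratrol and 509, 579 and 523 in control, a log2 change of -0.57 ± 0.08 (SE, adjusted p = 0.00133 by limma). Max, the partner, was named after its value was seen: it had 272, 220 and 206 with resveratrol and 174, 171 and 151 in control, a log2 change of 0.45 ± 0.11 (SE, adjusted p = 0.0342 by limma). In neither did the groups overlap. Mlxipl, the carbohydrate response factor that pairs with the Max-like protein Mlx, averaged 19.3 with resveratrol and 78.2 in control, a log2 change of -1.42. Its resveratrol level lay under the filter, so it was tested through its control level, and without it 2 of the list were called lower. The kinase gene Pim1 changed by -0.76 and the mitotic kinase gene Aurka by 0.51.

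Of 16 AP-1 target genes tested, 5 were called lower and 1 higher, with a median of -0.19. The metallothionein genes Mt2 and Mt1 changed by -0.55 and -0.46, and as near copies they may share signal. Mmp9, a gelatinase, had 98.4, 112 and 98.5 with resveratrol and 155, 149 and 164 in control, a log2 change of -0.53 ± 0.10 (SE, adjusted p = 0.00959 by limma). Mmp13, a collagenase, was named after its value was seen and was dim, at 14.4, 20.6 and 17.8 with resveratrol and 36.5, 34.7 and 56 in control. It was tested through its control level, its resveratrol level being under the filter, and without it 4 were called lower. Dcn, the proteoglycan decorin, changed by -0.50. Ccnd1, which encodes cyclin D1 and is named by its place in the Zfp36 list, rose by 0.36. The counts were 3 to 7 lower and 0 to 1 higher with 1 array left out.

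Among 19 other bZIP factors, 3 were called lower and 0 higher by limma (1 higher and 4 lower at an unadjusted p under 0.05), with a median of -0.01. With 1 array left out, 0 to 2 were called lower. Creb1, the cyclic AMP response factor, had 150, 150 and 186 with resveratrol and 207, 213 and 243 in control, a log2 change of -0.42 ± 0.11 (SE, adjusted p = 0.0392 by limma). Atf5, a stress response factor, changed by -0.35 and Maff, a small Maf protein, by -1.06 from a dim signal of 18 ± 13.5 with resveratrol and 51.7 ± 8.39 in control (SD, n = 3). The resveratrol level of Maff lay under the filter, so it was tested through its control level, and without it 2 bZIP factors were called lower.

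Upstream, 1 of 20 kinases and factors was called lower and 0 higher by limma (3 higher and 5 lower at an unadjusted p under 0.05), with a median of -0.02. Map2k1, which encodes the ERK kinase MEK1, had 745, 777 and 794 with resveratrol and 918, 942 and 946 in control, a log2 change of -0.27 ± 0.07 (SE, adjusted p = 0.0334 by limma). The groups did not overlap, but the call was lost whenever 1 array was left out.

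Of 39 other immediate-early genes, 4 were called higher and 3 lower, with a median of 0.11. Cebpd, a C/EBP factor of early fat cell formation, had 515, 496 and 514 with resveratrol and 314, 266 and 235 in control. Sgk1, a kinase induced by serum and glucocorticoids, had 718, 777 and 838 with resveratrol and 477, 480 and 521 in control. Ccn1, a secreted matrix protein also called Cyr61, had 988, 879 and 912 with resveratrol and 487, 458 and 646 in control. The Ccn1 probe set may cross-hybridise. All 3 stood clear of control, with log2 changes of 0.87, 0.64 and 0.80. Bhlhe40, a repressor that also responds to hypoxia and the clock, had 368, 368 and 365 with resveratrol and 599, 614 and 620 in control, a log2 change of -0.71 ± 0.07 (SE, adjusted p = 0.000144 by limma). Named after their values were seen, Ier2 changed by 0.29, Klf10 by -0.29 and Cebpb by -0.29. The list had calls in both directions, with 11 higher and 4 lower at an unadjusted p under 0.05 by limma. Of its log2 changes, 24 were above 0 and 15 below. Over all 12630 genes tested, 1768 were higher and 1492 lower at that unadjusted p, and 6778 were above 0 and 5852 below.

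Of 13 partners and targets of Egr1, 2 were called higher and 0 lower by limma (3 higher and 2 lower at an unadjusted p under 0.05), with a median of -0.03. F3, the tissue factor gene, rose by 0.53 ± 0.10 and Thbs1, which encodes thrombospondin 1, by 0.44 ± 0.12 (SE), with adjusted p = 0.00683 and 0.0418 by limma. Of 19 genes of the Zfp36 family and its targets, 2 were called higher and 2 lower, with a median of -0.03. Cxcl1, a chemokine whose messenger carries AU-rich elements, had 634, 666 and 683 with resveratrol and 279, 298 and 304 in control, a log2 change of 1.13 ± 0.08 (SE, adjusted p = 1.05e-05 by limma). Ccnd1 and Pim1 changed as above, and Cnot7, a subunit of the deadenylase that Zfp36 recruits, by -0.31.

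**Figure D3:**
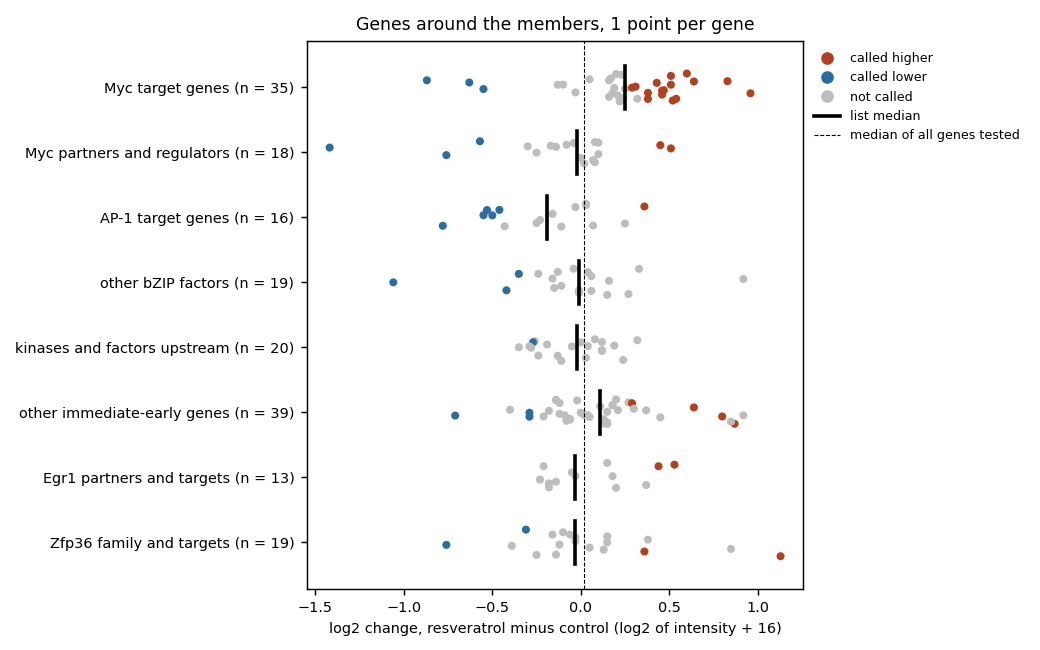
Log2 change, resveratrol minus control, of each gene tested in the 8 lists, with 1 point per gene. Red points were called higher, blue points lower and grey points not; thick bars are list medians and the dashed line is the median of all genes tested, 0.02. The Myc targets lie mostly to the right, with 16 called higher, and 5 of 16 AP-1 targets were called lower.

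Genes whose signal followed a member most closely over the 6 arrays were found by Pearson r, as a description. For Myc these were Mettl16, Ccnb2 and Pfn2, with r = 0.9967, 0.9939 and 0.9927. For Egr1 they were Hells, Ccdc71l and Wwc1, with r = 0.9952, 0.9922 and 0.9876. For Fos they were Pofut2, Rad1 and Kptn, with r = 0.9956, 0.9861 and 0.9858, and for Jun Casc3, Gnaq and 9930021J03Rik, with r = 0.9875, 0.9787 and 0.972. The 6 points share the 2 groups, and among 12630 genes an r of at least 0.95 was reached by 151 with Myc, 49 with Egr1, 44 with Fos and 21 with Jun.

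**Figure D4:**
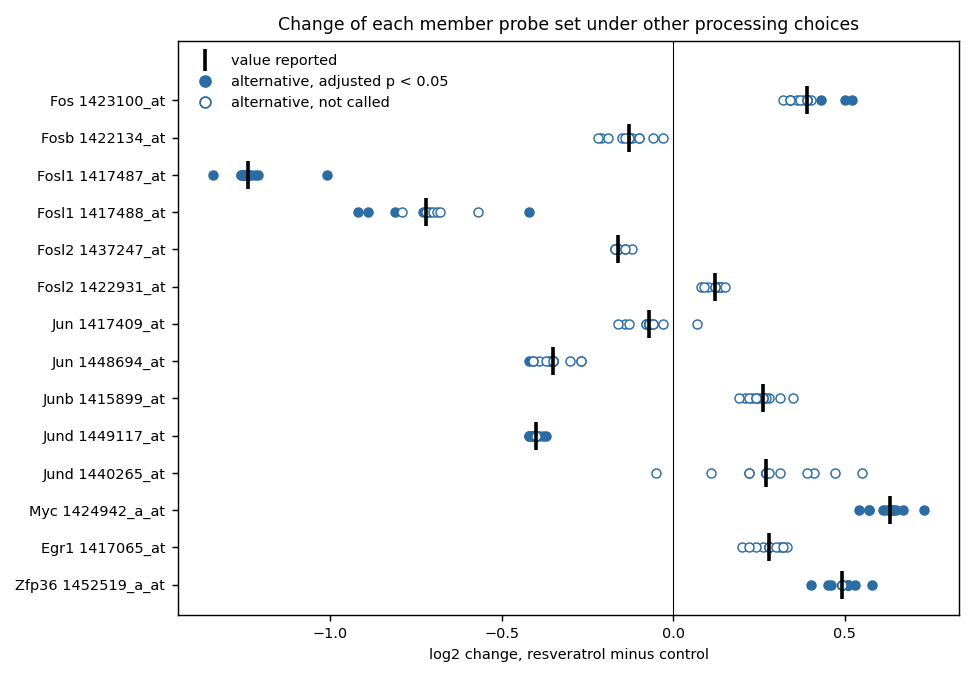
Log2 change of each member probe set as reported (black bar) and under each alternative that could be run on it, 18 at most (circles, filled where adjusted p was under 0.05); the offsets of 1 and 64 also change the scale. All circles of Fosl1 1417487_at and of Myc are filled, whereas those of Egr1 are all open.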

How the data were processed

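RNA was isolated with Trizol and biotin-labelled before hybridisation, per the labels' protocols. The authors deposited 1 linear intensity for every probe set on every array; which software summarised the probes was not given in the sources used here. Trimming 2% off both ends leaves a mean of 150 on all 6 arrays, as computed from the values, so arrays share 1 overall level while differences that depend on signal strength remain.

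The members and gene lists were chosen with earlier results of these data known. Symbols came from GEO's platform annotation, and 34754 of 34945 probe sets naming 1 gene matched the RefSeq table by Entrez number, with 0 differing. Genes that no probe set names alone were not analysed here. The 64 control probe sets were left out. Intensities were turned into log2(intensity + 16), which understates changes of dim probe sets. The 60% with the highest mean of these log2 values were tested in R 4.3.3 with limma 3.58.1, whose eBayes step modelled the variance as a trend on intensity, with 2-sided p-values adjusted by Benjamini and Hochberg's method over 27022 probe sets and a threshold of 0.05. The arrays' number limits the precision. All members are named. From each of the 8 other lists, up to 4 called genes with the smallest p are named, and exceptions are marked. A gene in more than 1 list is named under each. Of the cell type markers, Fabp4, Adipoq, Dlk1 and Csf1r were named by plan, and those called were named after their values were seen. Like genes are named for Fos, Jun, Myc and Egr1. Alternatives were other normalization, offsets, filters, variance models, blocks and probe set choices, and leaving out each array. The fit was also run on simulated data, and the outcome of that run is not reported here. Figures were drawn with matplotlib 3.10.9 under Python 3.11.15.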

Additional observations from a re-analysis of the deposited data

How the results depend on the processing

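Of the 14 member probe sets 5 were called, and 4 to 6 were with 1 array left out, 4 with no filter, 3 without probe sets suffixed _s, _x or _a (which removes Myc and Zfp36 by construction), and 2 without an intensity trend. On this array family _a marks transcripts of 1 gene, and without _s and _x alone, chosen after seeing the data, 5 members and 1951 of all were called. With no filter the dimmer Fosl1 probe set was lost (adjusted p = 0.0882). Without a trend Jund (adjusted p = 0.0544), Zfp36 (adjusted p = 0.0679) and that Fosl1 probe set (adjusted p = 0.0644) were lost. Over all probe sets tested 2209 were called, against 1396 with no filter, 861 without a trend, 1431 without those suffixed _s, _x or _a, and 1131 to 1952 with 1 array left out (1232 without resveratrol replicate 1, 1131 without resveratrol replicate 2 and 1179 without control replicate 2). Removing probe sets leaves fewer to call; the cause of the other shifts was not tested. Of the member changes, 2 reversed, Jun 1417409_at at 0.07 without resveratrol replicate 2 (-0.16 to 0.07 with 1 array left out) and Jund 1440265_at at -0.05 without control replicate 3 (-0.05 to 0.47). The directions of the other 12 held in every alternative run. The counts of Myc targets ranged from 5 to 19 higher and from 2 to 3 lower, those of AP-1 targets from 0 to 2 higher and from 3 to 7 lower, those of other immediate-early genes from 3 to 6 higher and from 1 to 4 lower, those of other bZIP factors from 0 to 3 lower, and those of upstream genes from 0 to 2 either way. The counts of Myc partners ranged from 0 to 2 higher and from 2 to 3 lower, those of Egr1 partners and targets from 0 to 2 higher, and those of the Zfp36 list from 1 to 3 higher and from 0 to 3 lower. The replicate numbers occur in both groups. Deviations from the group mean correlated over probe sets at r = -0.061, -0.016 and 0.093 for arrays of the same number. For arrays of different numbers r ran from -0.082 to 0.094. With 3 arrays per group these values cannot show whether a shared number stands for a shared occasion. With the replicate block 5 member probe sets and 1894 of all were called, and it changed no member's call. The lower counts of other immediate-early, upstream and Zfp36 genes were 1, 0 and 1, against 3, 1 and 2. Those of other bZIP factors and of Myc partners were each 2, against 3. The count of Myc targets called higher was 12, against 16. In this fit Myc had an adjusted p = 0.00565 by limma. Signals near 20 limit Fosb and Jund 1440265_at.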
